A study of Mus musculus with 9 samples.

Results

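The DNA replication and mitosis genes described here are a fixed list of 40 genes that run the cell division cycle, taken by symbol from the count table of a rat liver study. All 40 were found among the 37203 genes of the table, and 31 of them held enough counts to be tested, as did 14581 genes in all. Rat liver RNA was sequenced in 9 libraries, with 3 libraries in each of 3 groups. Rats of the schisandrin B group were dosed with the liver toxin carbon tetrachloride (CCl4), which hepatocytes convert to a radical, as a 50% mixture in olive oil at 2 mL/kg, 3 times a week for 8 weeks. After the first 4 weeks these rats were also given schisandrin B, a lignan of Schisandra fruit, every day for 4 weeks. The fibrosis group had received the same CCl4 course alone, and the normal group had received olive oil in its place. All animals are described as male Wistar rats, with 8 rats per group in the study. Schisandrin B was given at 25 or 50 mg/kg. Which dose the 3 libraries stand for is not stated, nor is it stated that each library is its own rat, so every SD and p-value measures the spread between these libraries, which may be technical.

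Hepatocytes in an adult liver are mostly outside the cycle and re-enter it after injury or loss of tissue. D-type cyclins with Cdk4 and Cdk6 start the passage out of G1, cyclin E with Cdk2 carries it into S phase, and E2F factors switch on the genes of DNA synthesis. The Mcm proteins form the helicase that opens DNA at origins. Cdk1 with cyclins A and B then drives mitosis, and the Aurora and Polo kinases, the spindle checkpoint and the anaphase-promoting complex order the separation of chromosomes. Much of the mRNA of the mitotic genes is made only in cycling cells, while the G1 cyclins and kinases are also transcribed in resting tissue.

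Each library held between 10320299 and 16255167 gene counts. The 40 genes made up 2575 to 3338 of these with schisandrin B, 2814 to 4347 in fibrosis and 3324 to 3846 in normal livers. Levels are TMM-scaled CPM, the counts of a gene relative to the scaled size of its library, and 1 count was worth 0.0587 to 0.0956 CPM. No transcript length was used, so levels are compared between groups for 1 gene and not between genes. The Y-linked genes Kdm5d and Eif2s3y had 0 counts in the 3 normal libraries, while Kdm5d had 120 to 182 counts in schisandrin B and 73 to 181 in fibrosis libraries. Treatment therefore cannot be told apart from whatever left the normal libraries without Y-linked counts, and this applies to every comparison with normal below. Of the 3 comparisons, schisandrin B against fibrosis is the one where both groups have Y-linked transcripts. Fibrosis replicate 1 stood farthest from its group, with a chi-square per degree of freedom of 98.0 and 116.5 against the other fibrosis libraries, where pairs in the other groups ranged from 15.1 to 37.8.

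The genes did not move as 1 block. In fibrosis livers the helicase subunit Mcm7, the phosphatase Cdc25a and the transcription factor Foxm1 were 3.41, 3.37 and 2.07 times their level in normal livers, and all of them fell in schisandrin B against fibrosis livers. The G1 and S phase genes Ccnd3, Ccnd1 and Cdk2 did the opposite: they fell in fibrosis livers and were higher with schisandrin B. Of the genes of dividing cells, Mki67, Top2a and Cdk1 were lower in both CCl4 groups than in normal livers. No change of these genes passed the test between schisandrin B and fibrosis. Mki67 overlapped between fibrosis and normal libraries, and its result in schisandrin B against normal held in 10 of 18 alternative fits. Ccnb1, Aurka, Aurkb, Birc5 and Kif11 passed the test in no comparison, and Pcna rose in fibrosis against normal livers. Cdk1 had 2 to 8 and Top2a 3 to 12 counts in each CCl4 library, against 14 to 47 and 18 to 49 in normal libraries. For both genes, only the normal group reached the minimum count of 10 in all its libraries. Their tests thus depended on the group where they were high, which favours a difference.

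A gene is called higher or lower where the edgeR quasi-likelihood test, adjusted over all genes tested by the Benjamini-Hochberg method, gave a p under 0.05, and only such genes are said to have risen or fallen. Between fibrosis and normal livers, which differ by the CCl4 course and in Y-linked counts, 4 of the 31 tested genes rose and 10 fell. Over all genes 25.4% rose and 22.9% fell, together 48.3%. The 14 calls are 45.2% of the tested genes of the list, close to that background. Between schisandrin B and fibrosis livers, which both had the CCl4 course, 6 of 31 rose and 4 fell, 32.3% in all. Over all genes 22.5% rose and 24.8% fell, together 47.3%. Between schisandrin B and normal livers, 0 rose and 4 fell, 12.9%, where 5.25% of all genes rose and 5.25% fell, together 10.5%. In that comparison 12 of the 31 genes had an unadjusted edgeR p under 0.05, as did 3900 of all 14581 genes tested. The DESeq2 Wald test and limma voom called 0 of the 31 higher too. Without normal replicate 1 the first comparison had 9 calls among 31 tested genes of the list, where 40.5% of all genes were called. Without schisandrin B replicate 3 the second had 6 among 35, where 37.4% of all genes were called. The 4 calls of schisandrin B against normal became 1 of 35 without schisandrin B replicate 2 or 3, where 5.19% and 4.62% of all genes were called, and 2 of 31 without normal replicate 1, where 6.2% were. They became 9 of 35 without fibrosis replicate 1, beside 18.5% of all genes. The share over all genes thus moved the same way as the counts in these fits.

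The median log2 fold change over the 31 tested genes was -0.77 in fibrosis against normal, beside 0.03 over all genes tested. It was -0.11 in schisandrin B against fibrosis, beside -0.03 over all genes, and -0.38 in schisandrin B against normal, beside 0.00 over all genes. The median in schisandrin B against fibrosis depended on single libraries and on scaling, with 0.13 without fibrosis replicate 3, -0.29 without fibrosis replicate 2, -0.04 without schisandrin B replicate 2, 0.0049 with upper-quartile factors and -0.39 with library totals. In schisandrin B against normal it was -0.62 without normal replicate 3 and -0.22 with library totals, and in fibrosis against normal it was -0.30 with library totals. The groups did not overlap in 15, 13 and 14 of the 31 genes in these comparisons, and over all genes in 55.8%, 56.8% and 38.7%. A gene that passed the filter on low counts only through the group where it was high had to differ, so these counts and medians describe the 31 genes and say nothing of the other 9. With library totals in place of TMM, the median over all genes shifted by 0.43 in fibrosis against normal, -0.27 in schisandrin B against fibrosis and 0.16 in schisandrin B against normal on the log2 scale. Of all genes called, the share called higher was then 74.7%, 32.6% and 70.3%, where it was 52.7%, 47.6% and 50.0% with TMM. Under that scaling 5 of the 31 genes rose and 5 fell in fibrosis against normal, 3 rose and 4 fell in schisandrin B against fibrosis, and 0 rose and 3 fell in schisandrin B against normal. Of all genes 51.9%, 47.8% and 12% were called in these comparisons under that scaling, in either direction. The first and second comparisons share the fibrosis libraries, so a gene that is high or low in these libraries moves in opposite directions in both.

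**Figure D1:**
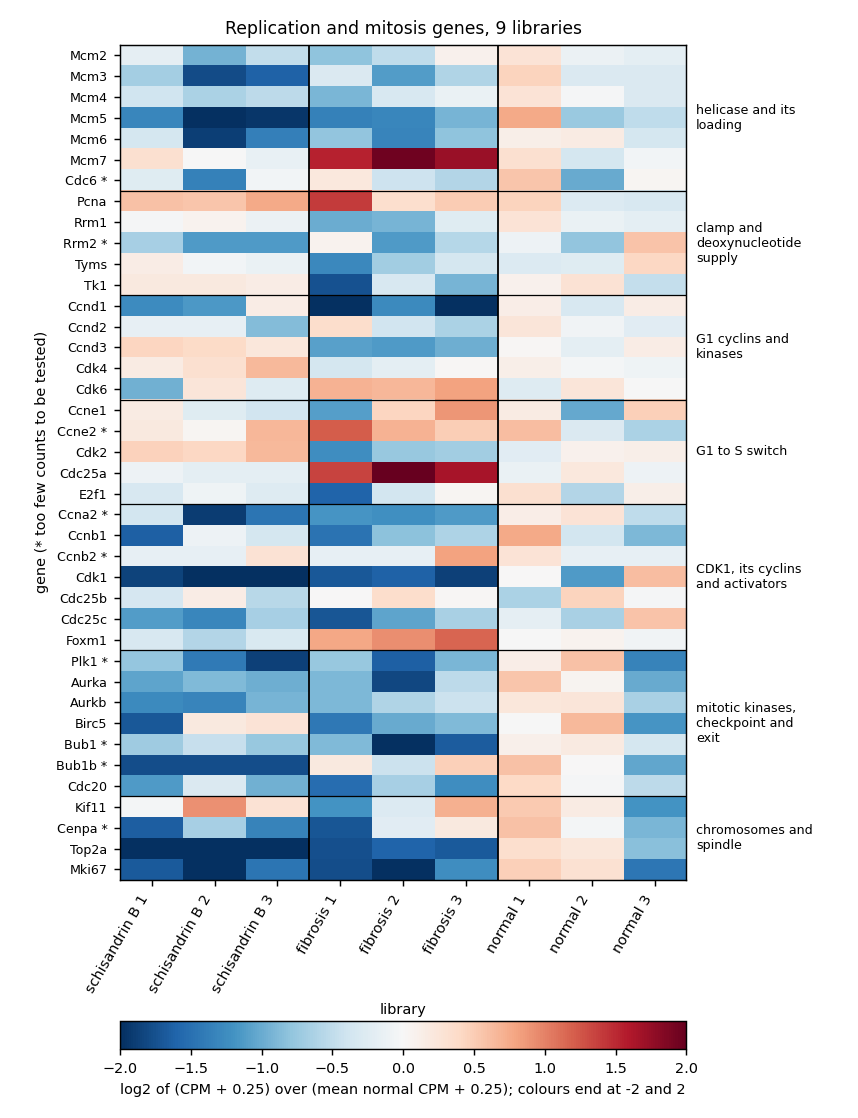
Level of each of the 40 genes in each of the 9 libraries, as the log2 of its CPM plus 0.25 over its mean CPM in normal libraries plus 0.25, with colours that end at -2 and 2. Rows are ordered by role, columns run from schisandrin B through fibrosis to normal libraries, and an asterisk marks the 9 genes with too few counts to be tested. Mcm7, Cdc25a and Foxm1 stand out as high in the fibrosis libraries, and Cdk1, Top2a and Mki67 are low in both CCl4 groups.

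The helicase genes split by subunit. Mcm7, which sits in the ring with Mcm2 to Mcm6, had 17.9, 14.2 and 12.8 CPM in schisandrin B libraries, 41.9, 55.6 and 47.8 CPM in fibrosis libraries and 17.9, 11.1 and 13.7 CPM in normal libraries. All 3 fibrosis libraries lay above all others, and the schisandrin B and normal libraries overlapped. Mcm7 rose 3.41-fold, or by 1.77 ± 0.22 on the log2 scale (SE, n = 3 per group) in fibrosis against normal with an edgeR adjusted p of 6.39e-05, and it fell by 1.70 ± 0.22 in schisandrin B against fibrosis (9.83e-05). Both calls held in all 18 alternative fits. In schisandrin B against normal its log2 fold change was 0.07 ± 0.22 without a call (0.871).

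None of the other ring subunits was called higher. Mcm5 had 1.43, 0.656 and 0.822 CPM with schisandrin B, 1.38, 1.44 and 1.94 in fibrosis and 6.79, 2.24 and 2.67 in normal libraries. Every normal library lay above every library of the CCl4 groups, and normal replicate 1 was far above the other 2. Mcm5 fell by 1.28 ± 0.47 on the log2 scale in fibrosis against normal (edgeR adjusted p 0.0402) and by 2.01 ± 0.50 in schisandrin B against normal (0.0262). Without normal replicate 1 neither was called, with adjusted p of 0.266 and 0.104. The first call also ended without any 1 of the fibrosis libraries or schisandrin B replicate 3 (0.0534 to 0.0987), and the second without schisandrin B replicate 2 or 3 (0.109 and 0.105).

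Mcm2, Mcm3, Mcm4 and Mcm6 had no call in any comparison. Mcm6 averaged 2.78 ± 1.69 CPM with schisandrin B, 3.01 ± 0.637 in fibrosis and 6.05 ± 1.18 in normal libraries (SD, n = 3), and it did not overlap between either CCl4 group and normal. Its edgeR adjusted p was 0.0533 in fibrosis against normal and passed the threshold in 7 of 18 alternatives, where it ranged from 0.0191 to 0.278. Mcm3 averaged 1.68 ± 0.865, 2.76 ± 0.837 and 4.42 ± 1.46 CPM in the same order of groups, with a log2 fold change of -1.40 ± 0.42 in schisandrin B against normal (0.0551). The log2 fold changes ran from -0.52 to -0.16 for Mcm2 and from -0.54 to -0.11 for Mcm4, and each changed sign in 1 of 18 alternatives in fibrosis against normal. Cdc6, which loads the helicase onto origins, had at most 8 counts in any library and was not tested.

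**Figure D2:**
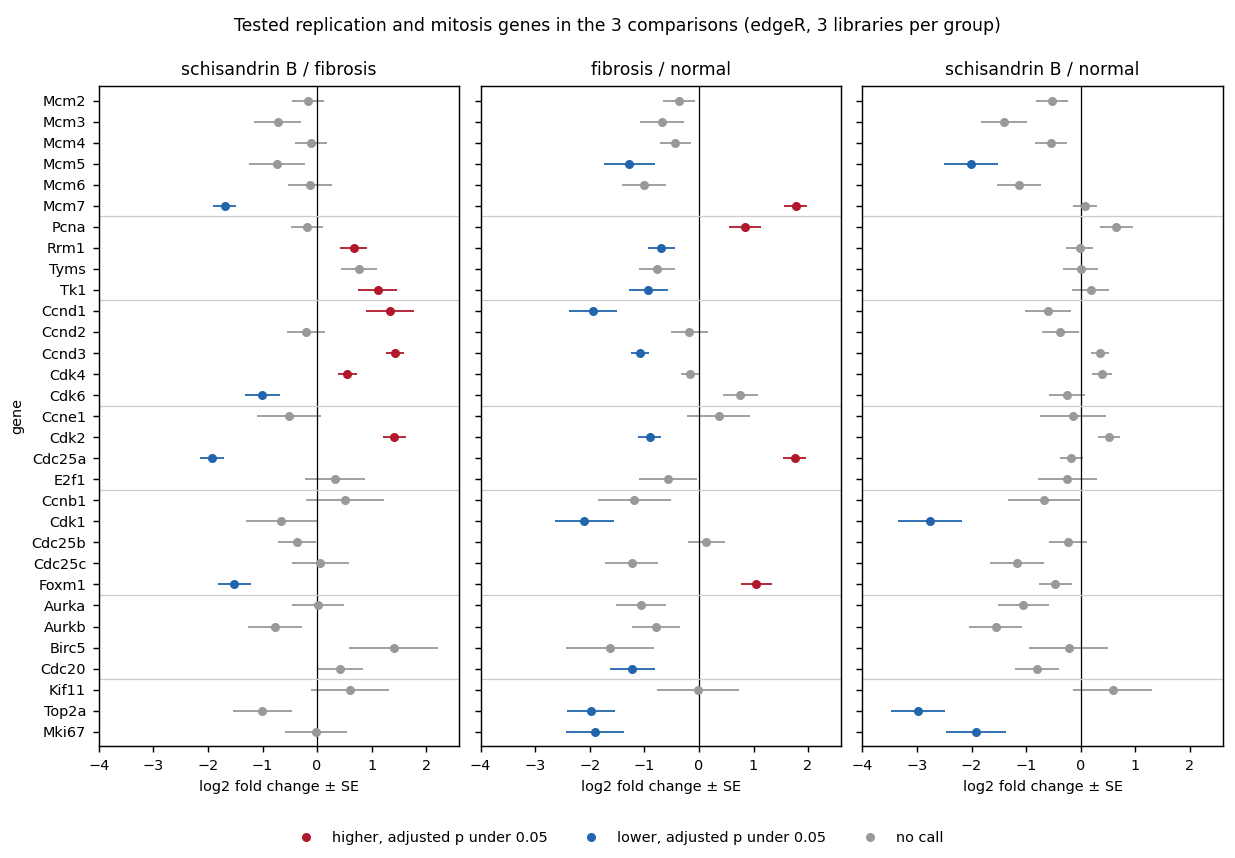
Log2 fold change with its SE for the 31 tested genes in schisandrin B over fibrosis, fibrosis over normal and schisandrin B over normal, from edgeR with 3 libraries per group. Red marks genes called higher, blue genes called lower and grey genes without a call. Mcm7, Cdc25a and Foxm1 are red in fibrosis over normal, grey in schisandrin B over normal and blue in schisandrin B over fibrosis, while Ccnd1, Ccnd3, Cdk2, Tk1 and Rrm1 are blue in fibrosis over normal and red in schisandrin B over fibrosis.

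Genes of the sliding clamp and of nucleotide supply also went in different directions. Pcna, the clamp that holds polymerases on DNA and also a p53 target, had 19.8, 19.4 and 22.3 CPM in schisandrin B libraries, 35.0, 16.5 and 18.7 in fibrosis libraries and 18, 10.8 and 10.4 in normal libraries. Fibrosis replicate 1 was the highest library and fibrosis overlapped with normal, while all schisandrin B libraries lay above normal. Pcna rose by 0.84 ± 0.30 on the log2 scale in fibrosis against normal (edgeR adjusted p 0.0358), and this call ended without fibrosis replicate 1 (0.135), normal replicate 2 or 3 (0.123 and 0.128) or any 1 of the schisandrin B libraries (0.0512 to 0.0619). Its log2 fold change was -0.19 ± 0.29 in schisandrin B against fibrosis and 0.65 ± 0.30 in schisandrin B against normal, both without a call.

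Of the tested enzymes of nucleotide supply, Tk1 and Rrm1 fell in fibrosis against normal and rose in schisandrin B against fibrosis. Tk1, the thymidine kinase of cycling cells, had 8.12, 8.09 and 7.85 CPM with schisandrin B, 1.94, 5.60 and 3.58 in fibrosis and 7.47, 8.67 and 5.02 in normal libraries. The schisandrin B libraries lay together and above every fibrosis library, and the fibrosis and normal libraries overlapped. Tk1 rose by 1.11 ± 0.35 on the log2 scale in schisandrin B against fibrosis (edgeR adjusted p 0.0223), a call that ended without schisandrin B replicate 2 or 3 or fibrosis replicate 3 (0.0521 to 0.0563) and with library totals as scaling (0.0940). It fell by 0.93 ± 0.35 in fibrosis against normal (0.0472), and this call held in 8 of 18 alternatives. It ended without any 1 library other than fibrosis replicate 2 and normal replicate 3 (0.0572 to 0.153).

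Rrm1, the large subunit of ribonucleotide reductase, followed Tk1. It had 11.4, 12.2 and 10.6 CPM with schisandrin B, 5.67, 5.98 and 9.75 in fibrosis and 14, 10.6 and 10.1 in normal libraries, with no overlap of fibrosis with either other group. It rose by 0.67 ± 0.25 on the log2 scale in schisandrin B against fibrosis (edgeR adjusted p 0.0464) and fell by 0.69 ± 0.25 in fibrosis against normal (0.0398). The first call held in 7 and the second in 9 of 18 alternatives. The first ended without any 1 library other than fibrosis replicate 3 (0.0516 to 0.140), and the second without schisandrin B replicate 2 or 3, fibrosis replicate 1 or 2 or normal replicate 1 or 2 (0.0557 to 0.147). A pseudogene copy of Rrm1 has a row of its own in the table, so reads shared by both could be split between them.

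Tyms, which makes thymidylate, averaged 4.69 ± 0.504 CPM with schisandrin B, 2.74 ± 0.931 in fibrosis and 4.70 ± 1.40 in normal libraries (SD, n = 3). It was without a call, with an edgeR adjusted p of 0.0774 in schisandrin B against fibrosis and 0.0739 in fibrosis against normal, and both passed the threshold without fibrosis replicate 3 (0.0417 and 0.0396). Rrm2, the small subunit of ribonucleotide reductase and the one tied to S phase, was near the detection limit. It had 1 count in the schisandrin B libraries together, 6 in fibrosis and 11 in normal libraries. The pooled rate with schisandrin B was 0.100 of the normal rate, with a 95% counting interval of 0.00233 to 0.690.

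Of the 5 G1 cyclins and kinases, 3 rose and 1 fell in schisandrin B against fibrosis, and 0 rose and 2 fell in fibrosis against normal, beside 47.3% and 48.3% of all genes called. Ccnd3, a D-type cyclin, had 35.0, 33.8 and 30.3 CPM in schisandrin B libraries, 12.1, 11.7 and 13.1 in fibrosis libraries and 26.4, 22.7 and 28.6 in normal libraries. The groups did not overlap in any comparison, with schisandrin B highest and fibrosis lowest. Ccnd3 rose by 1.43 ± 0.16 on the log2 scale in schisandrin B against fibrosis (edgeR adjusted p 5.11e-05) and fell by 1.07 ± 0.16 in fibrosis against normal (0.000266), and both calls held in all 18 alternatives. Its log2 fold change was 0.35 ± 0.16 in schisandrin B against normal, without a call (0.181).

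Ccnd1, the cyclin that growth signals induce in hepatocytes, was more variable. It had 25.9, 27.9 and 69.2 CPM with schisandrin B, 13.4, 25.5 and 9.81 in fibrosis and 68.1, 49.6 and 68.8 in normal libraries. Only schisandrin B replicate 3 reached the normal range, and the other schisandrin B libraries lay just above the highest fibrosis library. Ccnd1 fell by 1.94 ± 0.44 on the log2 scale in fibrosis against normal (edgeR adjusted p 0.00478, held in all 18 alternatives). It rose by 1.34 ± 0.44 in schisandrin B against fibrosis (0.0285), and this call ended without schisandrin B replicate 3 (0.119), fibrosis replicate 1 (0.128) or fibrosis replicate 3 (0.0848). Ccnd2, the remaining D-type cyclin, had no call, with 3.86 ± 1.05, 4.48 ± 1.76 and 5.04 ± 0.883 CPM (SD, n = 3) in schisandrin B, fibrosis and normal libraries.

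The partner kinases of the D-type cyclins differed from each other. Cdk4 had 50.3, 55.9 and 70.1 CPM with schisandrin B, 35.3, 39.4 and 45.7 in fibrosis and 48.4, 43.8 and 42.3 in normal libraries. It rose by 0.55 ± 0.18 on the log2 scale in schisandrin B against fibrosis (edgeR adjusted p 0.0229), and the call ended without schisandrin B replicate 3 (0.113) or fibrosis replicate 2 (0.0570) and with library totals as scaling (0.310). Cdk6 had 1.82, 4.52 and 3.10 CPM with schisandrin B, 6.23, 6.13 and 6.75 in fibrosis and 3.09, 4.47 and 3.72 in normal libraries. Every fibrosis library lay above all others for Cdk6, while for Cdk4 every fibrosis library lay below every schisandrin B library. Cdk6 fell by 1.00 ± 0.33 in schisandrin B against fibrosis (0.0247), a call that ended without schisandrin B replicate 1 or 3 or fibrosis replicate 3 (0.110, 0.0743 and 0.0564). Its log2 fold change was 0.76 ± 0.32 in fibrosis against normal, without a call (0.0714), and it was called with library totals as scaling (0.0109).

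At the step into S phase, Cdk2 and its activating phosphatase Cdc25a went opposite ways. Cdk2 had 17.7, 17.1 and 20.3 CPM in schisandrin B libraries, 5.26, 7.49 and 7.81 in fibrosis libraries and 10.9, 13.7 and 13.9 in normal libraries, without overlap in any comparison. It rose by 1.42 ± 0.21 on the log2 scale in schisandrin B against fibrosis (edgeR adjusted p 0.000269, held in all 18 alternatives). It fell by 0.90 ± 0.21 in fibrosis against normal (0.00425), and that call was lost with library totals as scaling (0.144). Its log2 fold change was 0.51 ± 0.21 in schisandrin B against normal, without a call (0.134), and it was called there in 2 of 18 alternatives.

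Cdc25a, which removes the inhibitory phosphates from Cdk2 and is normally broken down after DNA damage, had 9.84, 9.26 and 9.22 CPM with schisandrin B, 27.5, 46.1 and 33.8 in fibrosis and 9.71, 12.3 and 9.88 in normal libraries. Every fibrosis library was above every other library by a wide gap. Cdc25a rose by 1.75 ± 0.21 on the log2 scale in fibrosis against normal (edgeR adjusted p 5.96e-05) and fell by 1.92 ± 0.22 in schisandrin B against fibrosis (4.42e-05). Both calls held in all 18 alternatives, and in schisandrin B against normal the log2 fold change was -0.17 ± 0.21 (0.667).

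The remaining genes of this step had low counts. Ccne1, a cyclin E, averaged 1.35 ± 0.327 CPM with schisandrin B, 1.89 ± 1.23 in fibrosis and 1.5 ± 0.810 in normal libraries (SD, n = 3), and E2f1, the activating E2F factor, averaged 1.04 ± 0.110, 0.814 ± 0.531 and 1.25 ± 0.457 CPM. Neither had a call, and both overlapped in every comparison. Ccne2, the other cyclin E, had 0 to 8 counts per library and was not tested.

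**Figure D3:**
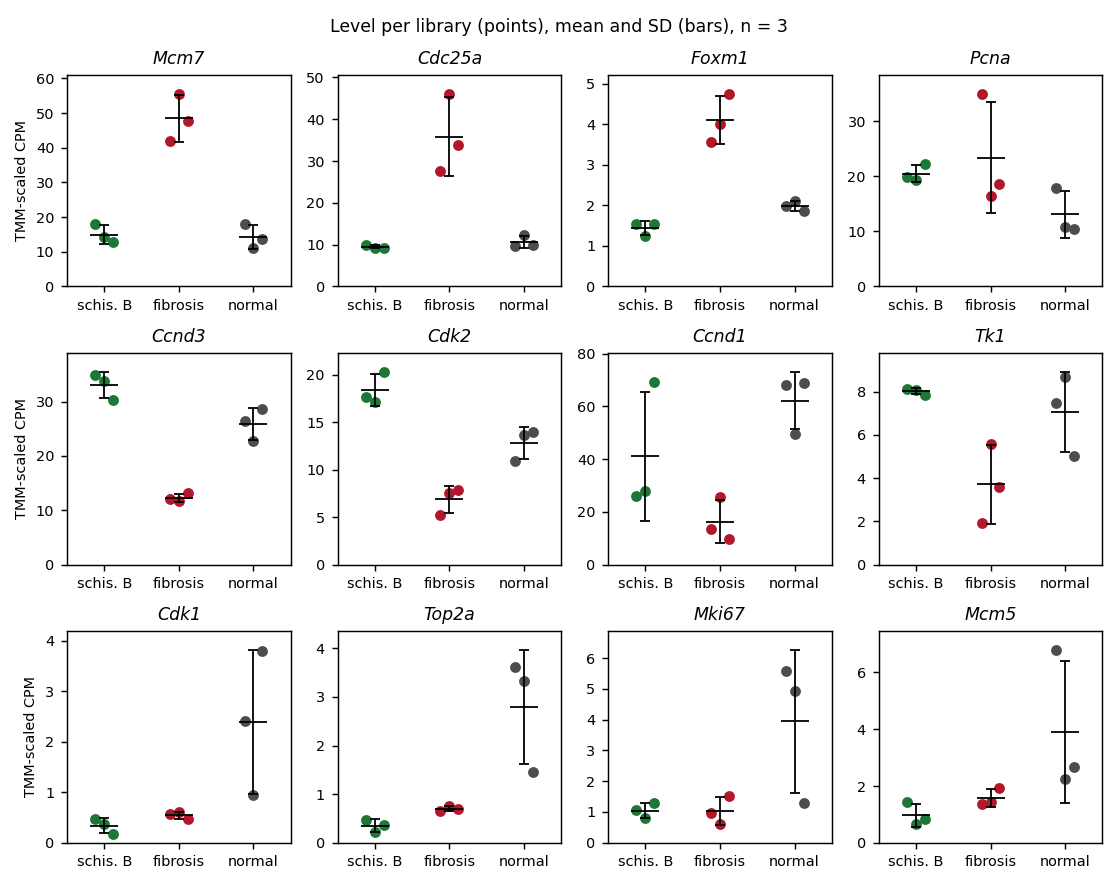
TMM-scaled CPM of 12 genes in each library, with the mean and SD of each group of 3. The upper row holds 4 genes called higher in fibrosis than in normal libraries, the middle row 4 genes called higher in schisandrin B than in fibrosis libraries, and the lower row 4 genes called lower in both CCl4 groups than in normal libraries. Pcna overlaps between fibrosis and normal, and Mki67 overlaps there through normal replicate 3.

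Foxm1, a transcription factor that activates genes of G2 and mitosis, was high in fibrosis livers. It had 1.53, 1.24 and 1.55 CPM with schisandrin B, 3.56, 4.01 and 4.76 in fibrosis and 1.98, 2.10 and 1.86 in normal libraries, without overlap in any comparison. Foxm1 rose by 1.05 ± 0.29 on the log2 scale in fibrosis against normal (edgeR adjusted p 0.00987) and fell by 1.52 ± 0.30 in schisandrin B against fibrosis (0.00147), and both calls held in all 18 alternatives. Its log2 fold change was -0.46 ± 0.30 in schisandrin B against normal, without a call (0.370). Cdk1, the kinase that drives the entry into mitosis, had 0.478, 0.365 and 0.183 CPM with schisandrin B, 0.567, 0.605 and 0.470 in fibrosis and 2.41, 0.948 and 3.81 in normal libraries. All CCl4 libraries were below all normal libraries.

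Cdk1 fell by 2.10 ± 0.54 on the log2 scale in fibrosis against normal (edgeR adjusted p 0.00732, held in all 18 alternatives) and by 2.76 ± 0.59 in schisandrin B against normal (0.0129). The second call ended without schisandrin B replicate 2 or 3 or normal replicate 3 (0.0544, 0.0649 and 0.0581). Behind these levels stand 12 counts in schisandrin B, 23 in fibrosis and 89 in normal libraries. Its log2 fold change was -0.66 ± 0.65 in schisandrin B against fibrosis, without a call (0.429).

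The cyclins of mitosis were close to the limit of detection. Ccnb1 averaged 0.678 ± 0.433 CPM with schisandrin B, 0.473 ± 0.207 in fibrosis and 1.12 ± 0.832 in normal libraries (SD, n = 3), with overlap in every comparison and no call. Ccna2 had 5, 0 and 1 counts with schisandrin B, 2, 2 and 3 in fibrosis and 9, 13 and 5 in normal libraries and was not tested. Ccnb2 had at most 4 counts in any library.

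The Cdk1 phosphatases had no call. Cdc25c, which activates Cdk1 at the entry into mitosis, averaged 0.956 ± 0.287, 0.895 ± 0.403 and 2.17 ± 1.04 CPM in schisandrin B, fibrosis and normal libraries (SD, n = 3). Its edgeR adjusted p was 0.0533 in fibrosis against normal and passed the threshold in 5 of 18 alternatives, where it ranged from 0.0336 to 0.237. Cdc25b averaged 2.94 ± 0.823, 3.82 ± 0.556 and 3.45 ± 1.33 CPM, with overlap in every comparison.

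Of the 7 mitotic kinases and checkpoint genes 4 were tested, and 1 of these was called. The call was lower in fibrosis against normal, where 22.9% of all genes fell. Cdc20, the activator of the anaphase-promoting complex, had 1.34, 2.62 and 1.55 CPM with schisandrin B, 0.971, 1.97 and 1.23 in fibrosis and 4.38, 3.18 and 2.19 in normal libraries. It fell by 1.22 ± 0.41 on the log2 scale in fibrosis against normal (edgeR adjusted p 0.0297), and the call ended without fibrosis replicate 1 or 3 or normal replicate 1 or 2 (0.0608 to 0.120) and with library totals as scaling (0.141). Fibrosis and normal libraries did not overlap, and schisandrin B libraries overlapped with both.

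The Aurora kinases were not called. Aurka averaged 1.84 ± 0.125 CPM with schisandrin B, 1.81 ± 0.846 in fibrosis and 3.84 ± 1.99 in normal libraries (SD, n = 3), with an edgeR adjusted p of 0.0755 in fibrosis against normal that passed without fibrosis replicate 3 (0.0466) or normal replicate 3 (0.0225). Aurkb, the kinase of the chromosomal passenger complex, averaged 0.432 ± 0.101, 0.735 ± 0.158 and 1.28 ± 0.475 CPM in the same order. Every schisandrin B library was below every fibrosis and every normal library for Aurkb, and its log2 fold change was -1.56 ± 0.48 in schisandrin B against normal (0.0621) and -0.77 ± 0.50 in schisandrin B against fibrosis (0.226). Birc5, survivin, which belongs to the same complex, had 1, 14 and 12 counts with schisandrin B, 2, 4 and 6 in fibrosis and 10, 22 and 3 in normal libraries, without a call.

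Plk1, Bub1 and Bub1b were not tested. Bub1b, the checkpoint protein BubR1, had 0 counts in the 3 schisandrin B libraries, 9, 5 and 16 in fibrosis and 12, 9 and 2 in normal libraries. With the schisandrin B libraries set to 3 counts each, the mean level of Bub1b was 2.63-fold lower than in fibrosis and 2.31-fold lower than in normal libraries. These ratios leave out the spread within the fibrosis and normal groups. Normal replicate 3, at 0.162 CPM, lay below the level set for the schisandrin B libraries. Bub1, the kinase of the same checkpoint, had 6, 10 and 6 counts with schisandrin B, 6, 1 and 3 in fibrosis and 14, 19 and 10 in normal libraries. Thus the schisandrin B libraries held none of the reads of one checkpoint gene and more CPM of the other than any fibrosis library. Plk1, the Polo kinase, had 1 to 5 counts with schisandrin B, 2 to 7 in fibrosis and 3 to 24 in normal libraries.

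Of the 3 tested chromosome and spindle genes, Top2a and Mki67 were called against normal. Top2a, the topoisomerase that untangles sister chromatids, had 0.478, 0.219 and 0.365 CPM with schisandrin B, 0.648, 0.757 and 0.705 in fibrosis and 3.61, 3.32 and 1.46 in normal libraries. The groups did not overlap in any comparison. Top2a fell by 2.98 ± 0.50 on the log2 scale in schisandrin B against normal (edgeR adjusted p 0.00358) and by 1.98 ± 0.44 in fibrosis against normal (0.00342), and both calls held in all 18 alternatives. Its log2 fold change was -1.0 ± 0.54 in schisandrin B against fibrosis, without a call (0.147), from 12 counts with schisandrin B and 30 in fibrosis.

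Mki67, which encodes the proliferation antigen Ki-67, had 1.05, 0.802 and 1.28 CPM with schisandrin B, 0.971, 0.605 and 1.53 in fibrosis and 5.58, 4.94 and 1.30 in normal libraries. Normal replicate 3 lay inside the fibrosis range, and the other normal libraries were far above it. Mki67 fell by 1.90 ± 0.53 on the log2 scale in fibrosis against normal (edgeR adjusted p 0.0119), a call that ended without normal replicate 1 (0.0537). It fell by 1.92 ± 0.55 in schisandrin B against normal (0.0452), and this call held in 10 of 18 alternatives. It ended without any 1 of the schisandrin B libraries or normal replicate 1 or 2 (0.111 to 0.153), and with upper-quartile factors, library totals and limma voom (0.0518, 0.0681 and 0.118).

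The other chromosome genes had few counts. Kif11, the motor that pushes spindle poles apart, averaged 1.04 ± 0.444 CPM with schisandrin B, 0.661 ± 0.576 in fibrosis and 0.697 ± 0.488 in normal libraries (SD, n = 3), without a call. Cenpa, the histone of the centromere, had 1, 6 and 2 counts with schisandrin B, 1, 9 and 17 in fibrosis and 16, 12 and 4 in normal libraries and was not tested.

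The libraries of a group differed among themselves. The summed level of Kif11, Cenpa, Top2a and Mki67 was 2.29 to 2.99 CPM with schisandrin B, 1.86 to 4.52 in fibrosis and 3.24 to 11.7 in normal libraries. Normal replicate 3 was the lowest normal library for 18 of the 31 tested genes, among them all tested genes of the checkpoint and chromosome groups, but it was the highest for Cdk1 and Cdc25c. In the fibrosis group replicate 1 was the lowest library for 21 of 31 genes and replicate 3 the highest for 19. The median coefficient of variation over the 31 genes was 24.2% in schisandrin B, 31.9% in fibrosis and 32.5% in normal libraries.

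Markers of liver cell types moved between the same groups, and their calls are to be read against the shares of all genes called. These were 25.4% higher and 22.9% lower in fibrosis against normal. In schisandrin B against fibrosis they were 22.5% higher and 24.8% lower, and in schisandrin B against normal 5.25% each way. Of 7 hepatocyte markers 5 fell in fibrosis against normal and 4 rose in schisandrin B against fibrosis, with a summed level of 185653 to 205065 CPM with schisandrin B, 61175 to 105774 in fibrosis and 222770 to 257732 in normal libraries. Cholangiocyte markers were 12.8 to 28.8 CPM with schisandrin B, 51.8 to 63.5 in fibrosis and 19.7 to 24.4 in normal libraries, and 3 of the 4 tested rose in fibrosis against normal. The T and NK cell markers fell there in 5 of 5 tested, with 7.73 to 9.84, 2.88 to 5.10 and 7.53 to 13.4 CPM in schisandrin B, fibrosis and normal libraries. B cell markers were 1.82 to 2.28, 0.832 to 0.891 and 3.59 to 8.34 CPM in the same order, and 2 of 2 tested fell in fibrosis against normal. The B cell marker Cd79a had 0 counts with schisandrin B and 1 count in each other group.

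Macrophage markers summed to 621 to 926 CPM with schisandrin B, 631 to 1261 in fibrosis and 1055 to 1624 in normal libraries, and 1 of 6 fell in fibrosis against normal. Stellate cell markers summed to 133 to 204, 110 to 169 and 96.6 to 137 CPM in the same order, and 3 of 7 rose and 1 fell there. Endothelial markers summed to 261 to 274, 215 to 244 and 293 to 394 CPM, and 3 of 5 fell. Erythroid markers ranged from 401 to 1005 CPM over all libraries with no call against normal. Neutrophil and myeloid precursor markers summed to 1.34 to 4.96, 8.99 to 11.0 and 4.13 to 6.88 CPM, with Elane at 0 in both CCl4 groups and Ctsg at 0 in fibrosis. The part of these cell types in the results was not tested, and in bulk tissue fewer cells of a type and less RNA per cell cannot be told apart.

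Genes that work beside the 40 were described from 10 lists with 168 further genes, of which 166 were in the table and 102 were tested. In fibrosis against normal 32 rose and 24 fell, in schisandrin B against fibrosis 21 rose and 31 fell, and in schisandrin B against normal 5 rose and 5 fell. These are 54.9%, 51.0% and 9.80% of the tested genes, close to the 48.3%, 47.3% and 10.5% of all genes called. The median log2 fold changes were -0.07, -0.31 and -0.03, beside 0.03, -0.03 and 0.00 over all genes. The lists below are to be read against the shares of all genes called, which were 25.4% higher and 22.9% lower in fibrosis against normal, 22.5% higher and 24.8% lower in schisandrin B against fibrosis, and 5.25% each way in schisandrin B against normal.

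Of the 23 DNA polymerase and fork genes tested, 12 fell and 3 rose in fibrosis against normal, where 48.3% of all genes were called, and 9 rose and 3 fell in schisandrin B against fibrosis, where 47.3% were. Timeless, which protects the fork, averaged 8.96 ± 1.52 CPM with schisandrin B, 2.38 ± 0.360 in fibrosis and 8.83 ± 0.179 in normal libraries (SD, n = 3), and Rnaseh2a, a subunit of the nuclease that removes RNA from DNA, averaged 30.6 ± 2.62, 10.6 ± 1.42 and 25.0 ± 1.77 CPM. The single-strand binding subunits split, with Rpa1 at 23 ± 1.94, 10.3 ± 2.97 and 33.8 ± 4.77 CPM and Rpa2 at 5.91 ± 1.20, 16.5 ± 2.17 and 4.98 ± 0.109 CPM. Rpa1 fell and Rpa2 rose in fibrosis against normal, with edgeR adjusted p of 0.000107 and 9.53e-05.

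Of the origin and helicase loading proteins, 2 of 10 tested rose and 0 fell in fibrosis against normal, and 1 rose and 1 fell in schisandrin B against fibrosis. Cdt1, the loading factor for the helicase, averaged 0.483 ± 0.318 CPM with schisandrin B, 3.15 ± 1.23 in fibrosis and 1.42 ± 0.702 in normal libraries and fell in schisandrin B against fibrosis (edgeR adjusted p 0.00231). Mcm10, which helps to activate the helicase, averaged 16.3 ± 2.39, 3.81 ± 3.46 and 3.52 ± 2.27 CPM and rose there (0.0290). Of the origin recognition subunits Orc2 averaged 6.28 ± 1.25, 5.67 ± 0.292 and 2.87 ± 0.946 CPM and Orc4 2.35 ± 0.324, 3.74 ± 0.400 and 1.93 ± 0.965 CPM, and both rose in fibrosis against normal. Replication-coupled chromatin factors had 1 lower call of 5 tested in fibrosis against normal, Dek, and the maintenance methylase Dnmt1 fell and Dek rose in schisandrin B against fibrosis (0.00673 and 0.00797).

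Of 6 condensin genes tested, 2 rose in fibrosis against normal, and 2 rose and 2 fell in schisandrin B against fibrosis. Smc2 and Smc4, the core ATPases of condensin, averaged 3.66 ± 0.169 and 3.27 ± 0.727 CPM with schisandrin B, 1.22 ± 0.469 and 1.19 ± 0.301 in fibrosis and 2.09 ± 0.446 and 1.80 ± 0.735 in normal libraries, and both rose in schisandrin B against fibrosis. Ncapd2 and Ncaph2, non-ATPase subunits, fell in that comparison and rose in fibrosis against normal. Of 9 kinetochore genes tested 3 rose and 2 fell in fibrosis against normal, and 1 rose and 2 fell in schisandrin B against fibrosis. Zwint, a kinetochore scaffold, averaged 40.5 ± 8.19 CPM with schisandrin B, 266 ± 27.0 in fibrosis and 39.5 ± 1.80 in normal libraries. Cenpm, a centromere protein, ran the other way with 5.47 ± 1.68, 1.54 ± 0.587 and 7.41 ± 0.0853 CPM. Of 9 spindle motor and cytokinesis genes 0 rose and 2 fell in fibrosis against normal, the spindle factor Tpx2 and the kinesin Kif20a. Kif20a fell in schisandrin B against normal too (edgeR adjusted p 0.0110). It had 3, 5 and 4 counts with schisandrin B, 5, 4 and 26 in fibrosis and 39, 31 and 33 in normal libraries. Only its normal group reached 10 counts in all libraries, so its test depended on the group where it was high, which favours a difference. In schisandrin B against fibrosis 1 gene of this list rose, Cit (0.0151), and 1 fell, Tacc3 (0.0176).

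**Figure D4:**
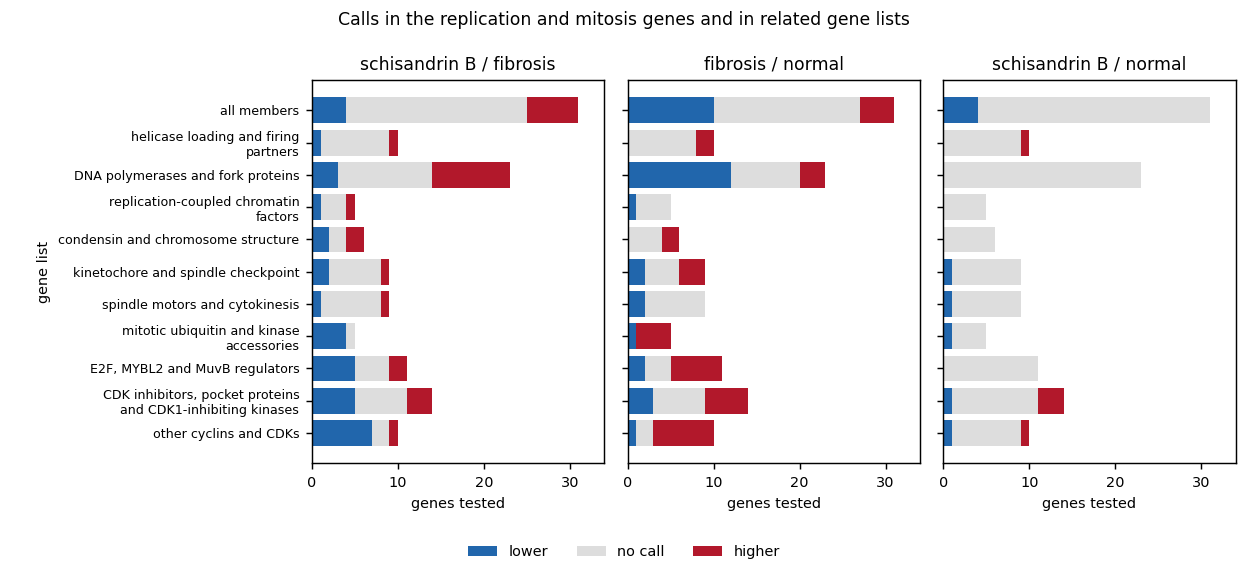
Number of tested genes called lower (blue), without a call (grey) and called higher (red) in the list of 40 genes and in 10 related lists, for schisandrin B over fibrosis, fibrosis over normal and schisandrin B over normal. DNA polymerases and fork proteins have 12 lower and 3 higher calls in fibrosis over normal, and other cyclins and CDKs have 1 lower and 7 higher.

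Of 12 accessory genes of the mitotic kinases and ubiquitin ligases 5 were tested, of which 4 rose and 1, Cdca3, fell in fibrosis against normal, and the same 4, Cks2, Cks1b, Fzr1 and Ube2s, fell in schisandrin B against fibrosis, which shares the fibrosis libraries. Cks2, a Cdk-binding subunit, averaged 0.746 ± 0.246 CPM with schisandrin B, 3.58 ± 0.957 in fibrosis and 1.06 ± 0.240 in normal libraries (SD, n = 3). Fzr1, the activator of the anaphase-promoting complex in G1, averaged 16.4 ± 2.46, 30.2 ± 5.63 and 14.4 ± 1.56 CPM.

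E2F and MuvB regulators rose in 6 of 11 tested and fell in 2 in fibrosis against normal, and 2 rose and 5 fell in schisandrin B against fibrosis. E2f4, the E2F factor of resting cells, averaged 22.1 ± 2.97 CPM with schisandrin B, 55.8 ± 6.0 in fibrosis and 20.1 ± 1.51 in normal libraries, and Lin37, its partner in the complex that represses cell cycle genes in resting cells, averaged 11.1 ± 1.67, 30.3 ± 4.24 and 10.1 ± 1.12 CPM. E2f5, the other E2F of this kind, rose by 3.10 ± 0.43 on the log2 scale in fibrosis against normal (edgeR adjusted p 0.000153). Tfdp2, of the same list, ran the other way with 5.85 ± 0.465, 2.72 ± 0.548 and 10.1 ± 1.98 CPM in schisandrin B, fibrosis and normal libraries. It fell in fibrosis against normal (0.000151) and rose in schisandrin B against fibrosis (0.00512).

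Inhibitors of the cycle changed in both directions. Cdkn1a, the p53-induced inhibitor p21, averaged 6.81 ± 1.64 CPM with schisandrin B, 89.6 ± 43.3 in fibrosis and 1.26 ± 0.343 in normal libraries. It rose by 6.12 ± 0.41 on the log2 scale in fibrosis against normal, fell by 3.72 ± 0.35 in schisandrin B against fibrosis and was 2.40 ± 0.39 higher in schisandrin B than in normal libraries, with edgeR adjusted p of 2.32e-06, 1.87e-05 and 0.00340. Gadd45a, a growth arrest gene induced by DNA damage, averaged 24.2 ± 12.6, 550 ± 307 and 26.0 ± 8.56 CPM, and the p53 target Ccng1 19.2 ± 3.28, 155 ± 62.8 and 19.1 ± 5.43 CPM. Rbl2, the pocket protein p130 that restrains E2F targets in resting cells, averaged 36.5 ± 1.60, 9.34 ± 1.70 and 40.9 ± 4.15 CPM, and fell in fibrosis against normal (7.62e-06) and rose in schisandrin B against fibrosis (1.49e-05). In all, 5 of 14 tested genes of this list rose and 3 fell in fibrosis against normal, 3 rose and 5 fell in schisandrin B against fibrosis, and 3 rose and 1 fell in schisandrin B against normal.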

How the data were processed

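The values are raw counts per gene, deposited by the authors for 9 rat liver RNA libraries read on the Ion Proton platform, per the labels. No source used here gives the counting tool, the annotation or the use of strand, so overlapping and antisense genes cannot be told apart. The labels name mouse as organism and GRCm38 as build, while the strain is a rat strain and the gene symbols are rat symbols, so no coordinates or sequences are given. The tests were run with edgeR 4.0.16 (R 4.3.3). Genes were kept by filterByExpr with a minimum count of 10, scaled by TMM and fitted with the robust quasi-likelihood model over all 9 libraries. Each SE was taken from the log2 fold change and the F statistic. P-values were adjusted by Benjamini-Hochberg over 14581 genes, and an adjusted p under 0.05 was a call. Depth was 10320299 to 16255167 counts per library, and the floor of 3 counts was worth 0.176 to 0.287 CPM. Floors and counting intervals cover counting error only. The fitting code was tested on simulated data for fibrosis against normal, schisandrin B against fibrosis and schisandrin B against normal. In this order 28%, 26% and 20% of planted 2-fold changes were recovered, and 84%, 83% and 77% of 4-fold changes. False calls were 5.08%, 8.40% and 5.83% of all calls. For each comparison 100 genes were planted at each fold, among 14201 to 14258 genes. In the real data 7041, 6895 and 1531 genes were called, and with more calls the adjustment accepts a larger unadjusted p. The simulated shares therefore do not give the power of the real tests. A gene without a call can still differ by 2-fold. The members and lists were chosen with earlier results of these data known. All 40 members are named, and of each other list up to 4 genes with the lowest adjusted p. Alternatives were other scalings, filters, thresholds, DESeq2 1.42.0, limma 3.58.1 voom, fits of only the 2 groups compared and each library left out in turn.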

Additional observations from a re-analysis of the deposited data

How the results depend on the processing

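Of 28 called results of single genes, 13 kept their call in all 18 alternative fits, and 15 lost it in at least 1. No called result reversed. Of 65 uncalled results, 11 were called in at least 1 alternative and 25 changed sign. At an adjusted p under 0.01, 8 genes were called in fibrosis against normal, 5 of them lower. In schisandrin B against fibrosis 5 were called, 2 of them higher, and in schisandrin B against normal 1, which was lower. The share of all genes at that threshold was not counted, so these counts have no background beside them. With library totals as scaling, 5 genes were called lower in fibrosis against normal and 3 higher in schisandrin B against fibrosis. Of all genes 51.9% and 47.8% were then called in these comparisons, in either direction. With no filter on low counts 3 of 40 genes were called higher in schisandrin B against fibrosis, where 27.2% of all genes were called. With limma voom 2 of 31 genes were called in schisandrin B against normal, both lower, beside 10.3% of all genes. With only the 2 groups in the fit, 1 gene was called higher there, and 2951 of all genes were called, against 1531. Leaving out 1 library gave 9 to 16 calls in fibrosis against normal (3 to 4 higher, 5 to 13 lower), 6 to 10 in schisandrin B against fibrosis (2 to 5 higher, 3 to 5 lower) and 1 to 9 in schisandrin B against normal (0 to 2 higher, 1 to 7 lower). These fits tested 31 to 35 genes of the list. The share of all genes called in them was 40.1% to 47.8%, 37.4% to 46.3% and 4.62% to 18.5% in the same order of comparisons. Calls over all genes in schisandrin B against normal were 2814 without fibrosis replicate 1, and 702 to 1004 without any 1 schisandrin B or normal library. The cause of these shifts was not tested. Upper-quartile factors moved the median of all genes by -0.11 in fibrosis against normal and by 0.13 in schisandrin B against fibrosis on the log2 scale. In schisandrin B livers 14 of the 40 genes had under 30 counts in the 3 libraries together, which limits what can be detected. No paired analysis was possible because the replicate numbers follow the order of the samples and the labels pair no libraries.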

Other observations

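Cyclins and kinases outside the core cycle formed a further list, of which 7 of 10 tested genes rose and 1 fell in fibrosis against normal, and 1 rose and 7 fell in schisandrin B against fibrosis, which shares the fibrosis libraries. Over all genes 25.4% rose and 22.9% fell in the first comparison, and 22.5% rose and 24.8% fell in the second. Ccnk, the cyclin of transcriptional kinases that act on RNA polymerase, averaged 14.2 ± 1.11 CPM with schisandrin B, 69.0 ± 7.38 in fibrosis and 20.8 ± 3.01 in normal libraries (SD, n = 3). Cdk8, a kinase of the Mediator complex, averaged 14.6 ± 1.94, 44.9 ± 1.61 and 13.9 ± 4.02 CPM in the same order. Cdk9, the kinase of the elongation factor P-TEFb, averaged 35.1 ± 0.0605, 62.7 ± 9.41 and 30.4 ± 2.19 CPM. Cdk5, an atypical kinase best known from neurons, ran the other way with 11.6 ± 1.90, 5.18 ± 0.703 and 11.9 ± 0.25 CPM. All 4 were called by edgeR in fibrosis against normal, with adjusted p of 1.62e-05, 7.39e-05, 0.000295 and 0.000764, and in schisandrin B against fibrosis. In schisandrin B against normal none of these 4 was called, with adjusted p of 0.0630, 0.873, 0.449 and 0.959.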
